A study of Mus musculus with 12 samples.

Results

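Transcripts of 40 mouse genes of mitochondrial fatty acid oxidation and the tricarboxylic acid (TCA) cycle were followed across 12 kidney libraries. The members were taken by gene symbol from a list of 23 beta-oxidation genes and 17 TCA cycle genes, and all 40 were found among the 23238 symbols of the deposited values. The kidneys came from C57BL/6 mice in 3 groups of 4 libraries: Control, CKD (chronic kidney disease) and CKD TRF, in which mice with the disease were kept on time restricted feeding, with food offered for part of the day only. The labels give the strain, the tissue and the group, and nothing on how the disease was brought about, the feeding hours, the hour of sampling, the age or the sex of the mice, or a control group on the restricted schedule. They also do not say that each library came from its own animal, so p-values measure the spread between libraries.

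Long fatty acids taken up by cells are joined to coenzyme A by acyl-CoA synthetases and are passed into mitochondria as carnitine esters, by the carnitine palmitoyltransferases, with carnitine supplied by its own transporter. Beta-oxidation then shortens the chain in rounds of dehydrogenation, hydration, a second dehydrogenation and thiolytic cleavage, and the electrons taken by the acyl-CoA dehydrogenases pass through electron transfer flavoprotein (ETF) to the respiratory chain. The acetyl-CoA released, like that made from pyruvate by the pyruvate dehydrogenase complex, is burned in the TCA cycle. Proximal tubule cells of the kidney, which reabsorb most of the filtered solute, are known to rely on fatty acids as fuel.

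Levels are given as scaled reads, the number of reads of a gene times a factor that differs between libraries, close in size to CPM. The libraries held 10989850 to 17209605 reads, and 3 reads, the most that a count of 0 allows, were worth 0.168 to 0.306 scaled reads, which covers counting error only. Summed over all genes, the 4 Control libraries came to 1076773 to 1180101 scaled reads, the CKD libraries to 941189 to 978419 and the CKD TRF libraries to 987841 to 1025834. These sums did not overlap between groups, which bears on the choice of scaling. The kidney label was checked against defining markers: the proximal tubule genes Lrp2 and Slc34a1 and the loop of Henle gene Slc12a1 were abundant in every library, and the adrenal cortex gene Cyp11b1 was at 0 in all but CKD 4. Control 1 and Control 2 stood apart from Control 3 and Control 4 in Lrp2 (1054 and 802 against 1972 and 1903 scaled reads) and Slc12a1 (439 and 476 against 1060 and 969). The fat markers Adipoq and Ucp1 were high in 5 libraries, CKD 2, CKD 4, CKD TRF 1, CKD TRF 3 and CKD TRF 4, where Adipoq reached 9.84 to 58.7 scaled reads against at most 1.88 elsewhere.

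The comparison of CKD with Control asked how these genes differ in diseased kidneys. Changes are differences of mean log2 values with the standard error (SE) from limma, n = 4 per group, and a gene was called where the Benjamini-Hochberg adjusted p over all 13943 tested genes was under 0.05. Of the 23 beta-oxidation genes 12 fell and 0 rose, with a median change of -0.38 and a range of -0.91 to 0.30. Of the 17 TCA genes 10 fell and 0 rose, with a median of -0.45 and a range of -1.12 to 0.28. Among all tested genes 45.4% were called, 21.8% lower and 23.6% higher, with a median of 0.02. The members were highly expressed genes, 30 of the 40 in the top 10% by mean, and genes of that level fell more often: of the 1364 other tested genes in the top 10%, 53.2% were lower (median -0.30), against 17 of the 30 members there (56.7%, median -0.40). The share called lower among these 30 members was thus near that of other genes of their level. None of the 30 was called higher, against 170 of the 1364. Of the other 10 members 50% were lower (median -0.26). Among the 1386 other tested genes between the 80th and 90th percentile by mean, 38.2% were lower (median -0.15), though some members lie below that range. In bulk tissue, fewer cells of a type and less RNA per cell cannot be told apart.

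**Figure D1:**
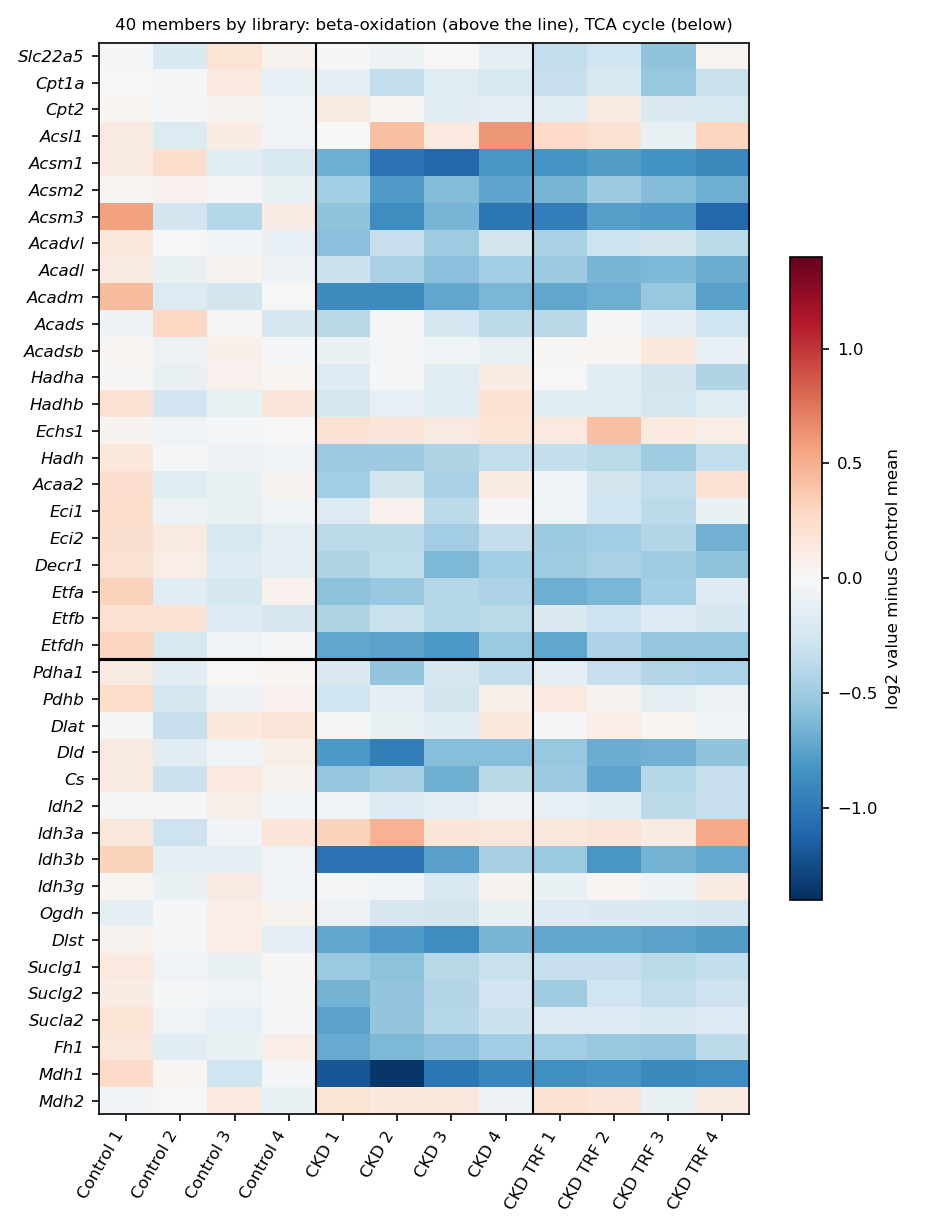
Heat map of the log2 value of each of the 40 members in each of the 12 libraries minus the mean of the 4 Control libraries, with beta-oxidation genes above the thick line and TCA genes below it, each in pathway order. Blue is lower and red is higher than the Control mean. The 8 diseased libraries are blue for the same rows, such as Acsm1, Acadm, Etfdh, Dlst and Mdh1, and pale for rows such as Cpt2, Acadsb, Dlat and Idh3g.

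The 3 genes of carnitine uptake and of the entry of fatty acids into mitochondria did not pass. Cpt1a encodes the liver-type carnitine palmitoyltransferase of the outer membrane, the step at which entry is controlled, and held 220, 219, 243 and 203 scaled reads in Control 1 to 4, 202, 174, 196 and 189 in CKD 1 to 4, and 176, 190, 153 and 178 in CKD TRF 1 to 4. Every CKD library lay below every Control library, by a narrow margin, and the change was -0.22 ± 0.09 (limma adjusted p = 0.0648). The threshold was passed without Control 4 (-0.26, adjusted p = 0.0473). Cpt2, the partner enzyme of the inner membrane, changed by -0.03 ± 0.10, and Slc22a5, the carnitine transporter OCTN2 of the plasma membrane, by -0.06 ± 0.12 (limma adjusted p = 0.84 and 0.737). The CKD and Control libraries overlapped for both.

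Acyl-CoA synthetases activate fatty acids by chain length. The 3 medium-chain enzymes fell, and Acsl1, a long-chain enzyme, did not pass. Acsm1 (chr7:119607026-119662515, mm10) held 204, 222, 169 and 160 scaled reads in Control 1 to 4, 116, 91.2, 86.7 and 106 in CKD 1 to 4, and 105, 109, 104 and 99.8 in CKD TRF 1 to 4. All 8 diseased libraries lay below all Controls, and the change in CKD was -0.91 ± 0.11 (limma adjusted p = 2.69e-06), the largest fall among the beta-oxidation genes. Acsm3 went from 288 ± 90.2 to 164 ± 23.4 scaled reads (SD, n = 4), a change of -0.77 ± 0.16 (limma adjusted p = 0.000501), with Control libraries that ranged from 211 to 412. Acsm2 held 8706 to 9667 scaled reads in Control, out of 14276 to 16303 for the 23 beta-oxidation genes together, and 5363 to 6658 in CKD, and changed by -0.65 ± 0.14 (limma adjusted p = 0.000873). After quantile normalization that change was 0.08 (adjusted p = 0.484), and without the 5 libraries with fat markers it was -0.54 (adjusted p = 0.0932). Acsl1 held 144, 116, 142 and 128 scaled reads in Control, 133, 177, 145 and 202 in CKD and 160, 153, 122 and 163 in CKD TRF. The CKD range overlapped the Control range, and the change was 0.30 ± 0.13 (limma adjusted p = 0.0621), or 0.39 (adjusted p = 0.0196) without CKD 1. The highest Acsl1 values were those of CKD 4 and CKD 2, the libraries highest in Adipoq. The change was 0.11 (adjusted p = 0.56) with a covariate for fat markers and 0.07 (adjusted p = 0.728) without the 5 libraries that held them.

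Of the 5 acyl-CoA dehydrogenases, which carry out the first oxidation of each round, the enzymes for very long, long and medium chains fell and those for short and branched chains did not pass. Acadm, the medium-chain enzyme (chr3:153922357-153944632, mm10), held 1265, 818, 782 and 933 scaled reads in Control 1 to 4, 506, 501, 564 and 597 in CKD 1 to 4, and 564, 579, 644 and 549 in CKD TRF 1 to 4. The lowest Control library stood above the highest diseased library, and Control 1 stood above the rest. The change was -0.78 ± 0.13 (limma adjusted p = 4.62e-05). Acadl, the long-chain enzyme, went from 397 ± 30.9 to 290 ± 23.4 scaled reads (SD, n = 4; -0.45 ± 0.09, limma adjusted p = 0.000448), and Acadvl, the very long-chain enzyme, from 195 ± 14.7 to 146 ± 15.1 (-0.42 ± 0.10, limma adjusted p = 0.00143). Neither gene's CKD libraries overlapped the Controls. Acads, the short-chain enzyme, changed by -0.25 ± 0.12 (limma adjusted p = 0.0833), and was called without Control 4 or without CKD 2 (adjusted p = 0.0323 and 0.0352). Acadsb, the enzyme for short branched chains, changed by -0.07 ± 0.09 (limma adjusted p = 0.546), with CKD libraries at 150 to 160 scaled reads and Controls at 153 to 171.

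Acadm had the largest fall among the acyl-CoA dehydrogenases in CKD, and its window holds the element AAGGTCA, of the kind that estrogen-related receptors bind. The stretch around the start of Acadm is shown for both reasons. The window runs from 250 bases before to 50 bases after the RefSeq start (chr3:153944594-153944893, minus strand, GRCm38.p6), and the capitals mark the element, which lies on the opposite strand.
Acadm: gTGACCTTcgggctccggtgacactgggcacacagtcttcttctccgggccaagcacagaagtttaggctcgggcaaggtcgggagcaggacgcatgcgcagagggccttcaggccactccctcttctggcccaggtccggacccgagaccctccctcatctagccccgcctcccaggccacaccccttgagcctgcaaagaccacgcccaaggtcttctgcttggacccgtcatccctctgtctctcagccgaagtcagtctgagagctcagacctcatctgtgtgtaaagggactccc

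Of the 5 genes of hydration, second dehydrogenation and thiolysis, only Hadh passed. Hadh encodes the soluble 3-hydroxyacyl-CoA dehydrogenase for shorter chains, and went from 750 to 867 scaled reads in Control to 552 to 618 in CKD (-0.44 ± 0.09, limma adjusted p = 0.000515). Hadha and Hadhb encode the alpha and beta chains of the mitochondrial trifunctional protein, which handles long chains. They changed by -0.06 ± 0.10 and -0.08 ± 0.12 (limma adjusted p = 0.632 and 0.601), with 95% intervals of -0.275 to 0.146 and -0.328 to 0.164. Hadha held 175, 160, 181 and 176 scaled reads in Control and 152, 171, 154 and 186 in CKD, so the groups overlapped. Echs1, the short-chain enoyl-CoA hydratase, lay higher in all 4 CKD libraries (186 to 196 scaled reads) than in the Controls (165 to 176), and its change of 0.17 ± 0.09 did not pass (limma adjusted p = 0.118). Acaa2, the thiolase, changed by -0.27 ± 0.14 (limma adjusted p = 0.113), with CKD libraries at 179, 210, 183 and 274 scaled reads. The high value was that of CKD 4, the library highest in Adipoq, and without it Acaa2 was called at -0.40 (adjusted p = 0.0179). The fit without the 5 libraries with fat markers gave -0.48 (adjusted p = 0.0222).

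The RefSeq starts of the 2 trifunctional protein genes lie head to head, 273 bases apart, Hadha on the minus and Hadhb on the plus strand. By the annotation used for gene positions the starts are closer, at 30155162 for Hadha and 30155248 for Hadhb. Whether they share a promoter was not tested. The window of Hadha (chr5:30154931-30155230, minus strand, GRCm38.p6) is shown because it covers most of the stretch between both starts, and capitals mark the bases from the Hadha start on.
Hadha: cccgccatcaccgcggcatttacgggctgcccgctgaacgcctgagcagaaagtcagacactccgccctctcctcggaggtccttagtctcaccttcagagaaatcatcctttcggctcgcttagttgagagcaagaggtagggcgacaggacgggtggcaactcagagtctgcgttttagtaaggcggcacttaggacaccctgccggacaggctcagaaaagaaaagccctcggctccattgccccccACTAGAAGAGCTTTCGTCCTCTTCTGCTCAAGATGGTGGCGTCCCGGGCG

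Auxiliary enzymes move or remove double bonds of unsaturated chains. Decr1, the 2,4-dienoyl-CoA reductase, went from 222 ± 28.7 to 159 ± 12.7 scaled reads (SD, n = 4; -0.47 ± 0.10, limma adjusted p = 0.000686), and Eci2, an enoyl-CoA isomerase, from 98.3 ± 14.3 to 74.2 ± 3.34 (-0.39 ± 0.11, limma adjusted p = 0.0055). Both parted the CKD from the Control libraries. The 3′ end of Eci2 resembles that of Eci3, so the counting could split their reads. Eci1, the other isomerase, changed by -0.13 ± 0.11 (limma adjusted p = 0.353) and its groups overlapped.

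All 3 genes of the electron transfer step fell. Etfdh encodes the ETF ubiquinone oxidoreductase, through which every acyl-CoA dehydrogenase hands its electrons to the respiratory chain (chr3:79603788-79629500, mm10). It held 115, 79.5, 90.3 and 91.7 scaled reads in Control 1 to 4, 55.9, 55, 52.8 and 64.8 in CKD 1 to 4, and 55.9, 68.6, 63.7 and 63.7 in CKD TRF 1 to 4. All diseased libraries lay below all Controls, and the change was -0.70 ± 0.11 (limma adjusted p = 5.46e-05). Etfa, the alpha chain of ETF, went from 164 ± 29.6 to 116 ± 6.58 scaled reads (SD, n = 4; -0.49 ± 0.12, limma adjusted p = 0.00322). Etfb, the beta chain, went from 741 ± 123 to 565 ± 18.6 (-0.38 ± 0.11, limma adjusted p = 0.00656), and its call ended without the 5 libraries with fat markers (-0.41, adjusted p = 0.0724). The window around the RefSeq start of Etfdh (chr3:79628718-79629017, minus strand, GRCm38.p6) is shown for a palindrome known as the site of the transcription factor NRF1. It alone among the members with a window held this palindrome, marked in capitals. The gene span given above begins farther upstream than the RefSeq start, so by that span the window and its palindrome lie inside the gene.
Etfdh: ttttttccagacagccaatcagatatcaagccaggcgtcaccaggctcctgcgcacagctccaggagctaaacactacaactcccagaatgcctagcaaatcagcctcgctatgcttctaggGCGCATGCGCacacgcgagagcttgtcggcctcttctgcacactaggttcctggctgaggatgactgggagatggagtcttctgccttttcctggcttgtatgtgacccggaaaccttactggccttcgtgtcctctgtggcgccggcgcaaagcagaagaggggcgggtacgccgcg

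**Figure D2:**
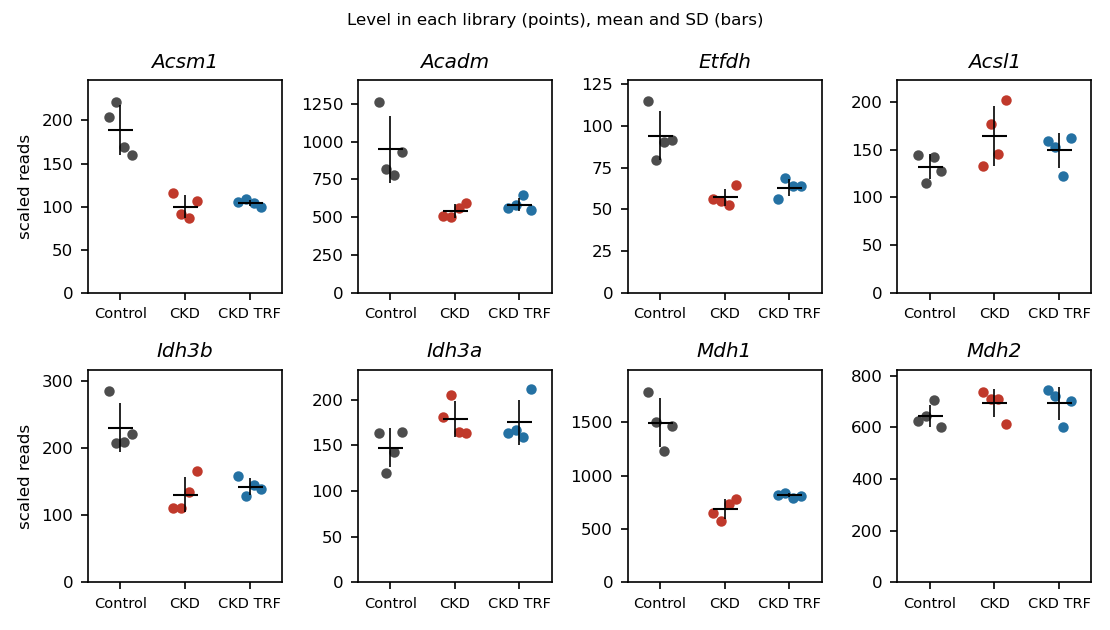
Levels in scaled reads of 8 members in each library (points, 4 per group), with the group mean and SD as bars and axes that start at 0. Acsm1, Acadm, Etfdh, Idh3b and Mdh1 lie lower in all 8 diseased libraries than in every Control library, while Acsl1, Idh3a and Mdh2 overlap between the groups.

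In the TCA cycle genes fell at the steps from pyruvate dehydrogenase through citrate synthase to fumarase, while Mdh2, the last enzyme of the round, did not pass. In most complexes with several genes some passed and others did not. Pyruvate dehydrogenase feeds the cycle. Its E1 alpha chain gene Pdha1 went from 396 ± 30.2 to 314 ± 33 scaled reads (SD, n = 4; -0.33 ± 0.10, limma adjusted p = 0.0109), a call that ended without CKD 2 (-0.26, adjusted p = 0.0554) and without the 5 libraries with fat markers (-0.23, adjusted p = 0.223). The E1 beta chain gene Pdhb changed by -0.15 ± 0.11 and the E2 gene Dlat by -0.03 ± 0.11 (limma adjusted p = 0.291 and 0.84). Dld encodes the E3 subunit that pyruvate dehydrogenase shares with 2-oxoglutarate dehydrogenase, and held 257, 213, 225 and 249 scaled reads in Control 1 to 4, 134, 120, 155 and 155 in CKD 1 to 4, and 163, 145, 147 and 158 in CKD TRF 1 to 4. The gap between the lowest Control and the highest diseased library was wide, and the change was -0.74 ± 0.10 (limma adjusted p = 7.25e-06). Cs, citrate synthase, the entry enzyme of the cycle, went from 141 ± 19 to 97.7 ± 8.39 scaled reads (SD, n = 4; -0.52 ± 0.11, limma adjusted p = 0.00101).

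Of the 4 isocitrate dehydrogenase genes, which act at the first oxidative step, 1 fell. Idh3b, a regulatory chain of the NAD-linked enzyme (chr2:130279309-130284547, mm10), held 284, 208, 209 and 220 scaled reads in Control 1 to 4, 111, 111, 134 and 165 in CKD 1 to 4, and 158, 129, 145 and 138 in CKD TRF 1 to 4. It lay lower in every diseased library, at -0.82 ± 0.13 in CKD (limma adjusted p = 3.03e-05). Idh3a, the catalytic chain of the same enzyme, held 163, 119, 143 and 164 in Control 1 to 4, 181, 205, 164 and 163 in CKD 1 to 4, and 164, 166, 159 and 211 in CKD TRF 1 to 4. The groups met near 163 scaled reads, and the change of 0.28 ± 0.12 did not pass (limma adjusted p = 0.0582). It was called without Control 1 (0.33, adjusted p = 0.0397) or without Control 4 (0.34, adjusted p = 0.038). Idh3g, the other regulatory chain, changed by -0.06 ± 0.09, and Idh2, the NADP-linked mitochondrial enzyme, by -0.11 ± 0.09 (limma adjusted p = 0.646 and 0.321). The exons of Idh3b overlap those of Nop56 on the other strand, and since no source used here says that the counting used strand, reads of the pair may be mixed.

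In the 2-oxoglutarate dehydrogenase complex 1 of the 2 genes that belong to it alone fell. Dlst, its E2 subunit (chr12:85110833-85134845, mm10), held 268, 257, 277 and 239 scaled reads in Control 1 to 4, 156, 150, 142 and 165 in CKD 1 to 4, and 156, 156, 154 and 150 in CKD TRF 1 to 4. The spread within groups was narrow, and the change was -0.76 ± 0.09 (limma adjusted p = 7.32e-07). Ogdh, the E1 subunit, changed by -0.17 ± 0.09 (limma adjusted p = 0.121), with Controls at 302 to 352 scaled reads and CKD libraries at 277 to 311, which overlapped. All 3 succinyl-CoA synthetase genes fell: Sucla2, the chain of the ADP-linked form, by 0.50 ± 0.10, Suclg2, the chain of the GDP-linked form, by 0.47 ± 0.10, and Suclg1, the alpha chain both forms share, by 0.45 ± 0.09 (limma adjusted p = 0.00049, 0.000479 and 0.000445). Fh1, fumarase, went from 248 ± 25.8 to 163 ± 10.6 scaled reads (SD, n = 4; -0.60 ± 0.09, limma adjusted p = 3.41e-05).

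Mdh1 had the largest fall of the 40 members in CKD. It encodes the cytosolic malate dehydrogenase, which works with the mitochondrial Mdh2 in the malate-aspartate shuttle (chr11:21556787-21572367, mm10). Mdh1 held 1786, 1506, 1226 and 1464 scaled reads in Control 1 to 4, 648, 578, 734 and 785 in CKD 1 to 4, and 819, 836, 794 and 813 in CKD TRF 1 to 4. The change was -1.12 ± 0.12, a fold of 0.460 on the log2 scale with the added 1 (limma adjusted p = 3.19e-07), and the highest diseased library (836) lay well below the lowest Control (1226). Mdh2, the enzyme of the cycle itself, held 625, 642, 704 and 603 scaled reads in Control and 735, 711, 710 and 613 in CKD, a change of 0.10 ± 0.10 (limma adjusted p = 0.408).

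**Figure D3:**
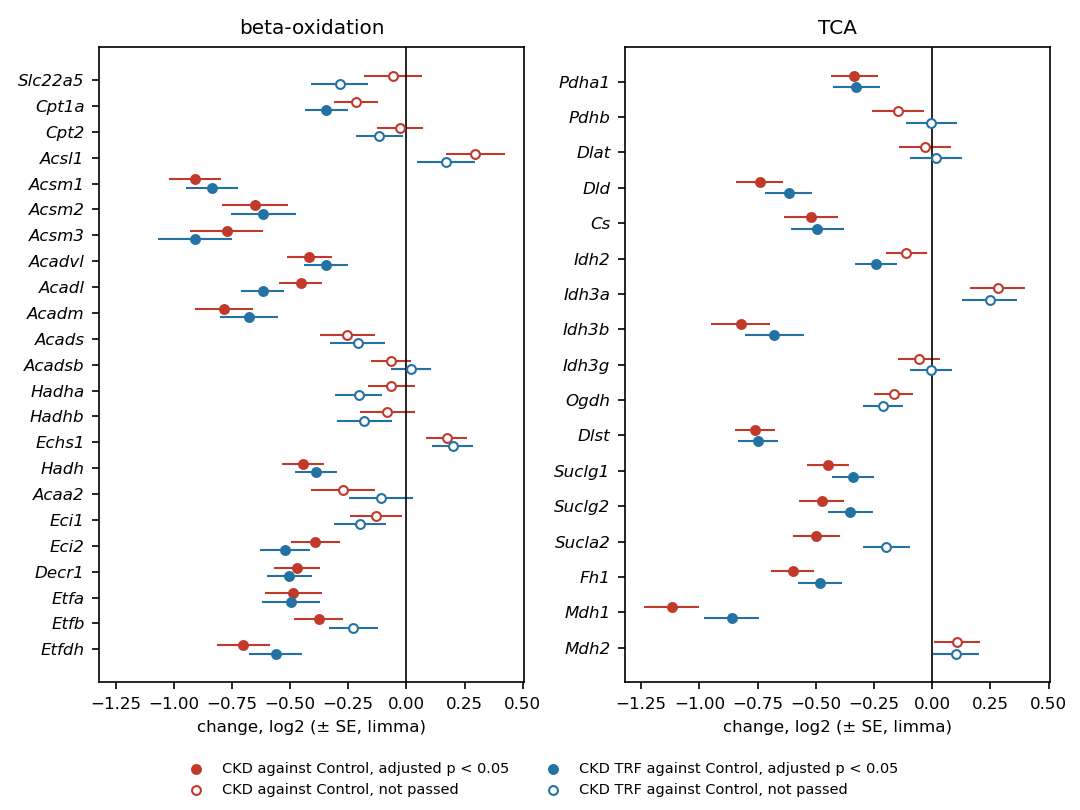
Change against Control on the log2 scale (± SE, limma) of each beta-oxidation gene (left) and TCA gene (right), red for CKD and blue for CKD TRF, filled where the adjusted p was under 0.05. Both comparisons use the same 4 Control libraries. Mdh1 lies farthest to the left, at -1.12 in CKD and -0.86 in CKD TRF.

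By whether libraries overlapped at all, 13 beta-oxidation and 11 TCA genes had every CKD library below every Control library, and Echs1 alone had every one above. Among all tested genes the groups did not overlap for 39.5%, 19.2% wholly lower and 20.3% wholly higher. All 40 members passed the filter on low values, and the lowest of them lay at the 73.9th percentile of the tested genes by mean.

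The balance between partners of 1 complex or reaction was followed as the log2 ratio of the 2 genes in each library, in which a common factor of a library nearly cancels. Over 9 pairs and 3 comparisons, 27 exact two-sided permutation tests were run, in which 4 against 4 libraries can give no p below 0.0286. The unadjusted p was at that limit in 8 of them, and 0 passed after adjustment, the smallest adjusted p being 0.0964. At that limit, a pair could not pass on its own after adjustment over 27 tests, even with no overlap. The adjusted result thus decides nothing for a single pair. The ratio of Mdh1 to Mdh2 was 1.51, 1.23, 0.80 and 1.28 in Control 1 to 4 and -0.18, -0.30, 0.05 and 0.36 in CKD 1 to 4, a difference of -1.22 (exact permutation p = 0.0286, adjusted 0.0964). The ratio of Idh3a to Idh3b was -0.80, -0.80, -0.55 and -0.42 in Control and 0.71, 0.88, 0.29 and -0.02 in CKD, a difference of 1.10 with the same p. Neither pair's libraries overlapped between groups. Idh2 to Idh3a differed by -0.39, again with no overlap and the same p. By contrast, Hadha to Hadhb differed by 0.02 (exact permutation p = 0.914), Etfa to Etfb by -0.11 (p = 0.543, exact permutation) and Sucla2 to Suclg2 by -0.02 (p = 0.6, exact permutation).

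The count of members called depended on the scaling of the libraries. The median change of all tested genes in CKD against Control was 0.02 as deposited, -0.08 after median centring, -0.05 after quantile normalization and 0.23 after scaling to equal sums, and the share of called genes that were higher was 52.1%, 40.3%, 47.2% and 76.3% in the same order. The share of all tested genes called lower was 21.8%, 28.1%, 22.6% and 11.1%. Of the 12 beta-oxidation genes that fell, 4 stayed called lower under all 3 other scalings and with each library left out in turn: Acadm, Acsm1, Acsm3 and Etfdh. Of the 10 TCA genes that fell, 6 did: Idh3b, Dlst, Dld, Sucla2, Fh1 and Mdh1. Quantile normalization or equal sums ended the calls of Acadl, Acadvl, Hadh, Eci2, Decr1, Acsm2, Etfa, Etfb, Cs, Suclg1, Suclg2 and Pdha1. Median centring added Cpt1a (-0.32), Acads (-0.36), Acaa2 (-0.38) and Ogdh (-0.27) to those lower. The other scalings brought 5 members past the threshold as higher: Echs1 (0.40 under both), Acsl1 (0.49 and 0.52), Idh3a (0.49 and 0.51) and Mdh2 (0.55 and 0.33) under both, and Idh2 under quantile normalization alone (0.23, adjusted p = 0.0298).

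**Figure D4:**
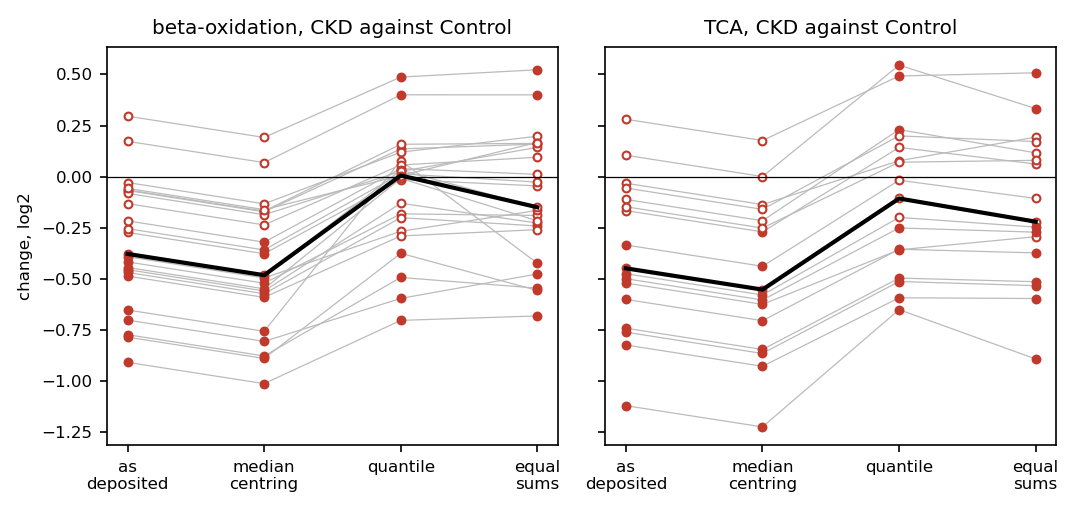
Log2 change of each beta-oxidation gene (left) and TCA gene (right) in CKD against Control under 4 scalings of the libraries, joined by grey lines, with filled points where the adjusted p was under 0.05 and the median of the list as a black line. The beta-oxidation median moves from -0.38 as deposited to 0.01 after quantile normalization, and the TCA median from -0.45 to -0.11.

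The comparison of CKD TRF with CKD asked what restricted feeding changed in the diseased kidney. None of the 40 members passed, and none of the 13943 tested genes did (limma, smallest adjusted p = 0.705), so 0% were called in either direction. At an unadjusted p under 0.05 there were 890 genes (6.38%), and limma voom on the recovered reads also called 0. The median change was -0.01 for the beta-oxidation genes and 0.05 for the TCA genes. The 95% intervals of the single members reached 0.178 to 0.328 to either side and together spanned -0.487 to 0.513, so changes beyond those bounds lay outside the interval of every member.

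The members with an unadjusted p under 0.05 were Sucla2 and Mdh1, both higher in CKD TRF. Sucla2 (chr14:73525319-73596142, mm10) held 149, 171, 191 and 205 scaled reads in CKD 1 to 4 and 220, 220, 216 and 222 in CKD TRF 1 to 4, beside 288, 243, 232 and 249 in Control. The CKD TRF libraries lay between the other groups without overlap. The difference was 0.30 ± 0.10 by limma, at an adjusted p of 0.705 and 0.00736 before adjustment. For Mdh1 the difference was 0.26 ± 0.12 by limma, at an adjusted p of 0.773 and 0.0399 before adjustment, with all CKD TRF libraries just above the highest CKD library. Etfb was the remaining member whose libraries did not overlap, at 546 to 590 scaled reads in CKD and 599 to 645 in CKD TRF (0.15 ± 0.11, limma adjusted p = 0.843). Among all tested genes 4.5% did not overlap between CKD TRF and CKD, 2.37% wholly higher and 2.13% wholly lower. The ratio of Sucla2 to Suclg2 differed by 0.18 (exact permutation p = 0.0286, adjusted 0.0964).

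Against Control, which also serves the comparison above, CKD TRF kidneys held less RNA of 12 beta-oxidation genes and 10 TCA genes, with 0 higher in either list and medians of -0.34 and -0.33. Among all tested genes 37.5% were called, 17.9% lower and 19.5% higher, with a median of 0.01. By overlap, 11 members of each list were wholly lower and 1, Echs1, wholly higher, against 15.6% and 16.3% of all tested genes (31.9% in either direction). In the top 10% by mean, 44.4% of the 1364 other genes were lower (median -0.22), against 56.7% of the 30 members there (median -0.33). Called higher were 160 of those other genes and 0 of those members. Of the remaining 10 members 50% were lower (median -0.39). Among the 1386 other genes between the 80th and 90th percentile, 32.4% were lower (median -0.12). Acsm3 and Acsm1 led the beta-oxidation genes at -0.91 ± 0.16 and -0.84 ± 0.11 (limma adjusted p = 0.00015 and 1.09e-05), and Mdh1 and Dlst led the TCA genes at -0.86 ± 0.12 and -0.75 ± 0.09 (limma adjusted p = 1.19e-05 and 1.51e-06).

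The calls against Control differed between the diseased groups in 4 members, none of which passed in the direct comparison of CKD TRF with CKD. Cpt1a was called in CKD TRF (-0.34 ± 0.09, limma adjusted p = 0.00641), and that call ended with a covariate for fat markers (-0.28, adjusted p = 0.0547). Idh2 was called there at -0.24 ± 0.09 (limma adjusted p = 0.037), and leaving out Control 1, 3 or 4 or CKD TRF 3 or 4 ended it, at adjusted p of 0.0507 to 0.117. Etfb and Sucla2 were called in CKD and not in CKD TRF, at -0.23 ± 0.11 and -0.20 ± 0.10 (limma adjusted p = 0.0977 and 0.134). The call of Pdha1 in CKD TRF ended without CKD TRF 4 (-0.29, adjusted p = 0.0536). Under all 3 other scalings and with each library left out, 8 of the 12 beta-oxidation calls remained (Acadm, Acadl, Eci2, Decr1, Acsm1, Acsm3, Etfa and Etfdh) and 6 of the 10 TCA calls (Cs, Idh3b, Dlst, Dld, Fh1 and Mdh1). Without the 5 libraries with fat markers 1 CKD TRF library was left, so the calls of that fit against Control are not counted here.

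Other genes of the same pathways were read from lists that hold none of the members. Of 32 tested fatty acid oxidation genes 17 fell and 4 rose in CKD (median -0.40). The largest changes were those of Acat1, the mitochondrial acetoacetyl-CoA thiolase (-1.22 ± 0.12), Nudt19, a coenzyme A diphosphatase of peroxisomes (-1.09 ± 0.13), Eci3, an enoyl-CoA isomerase (-1.05 ± 0.13), and Fabp3, a fatty acid binding protein (-0.98 ± 0.13, limma adjusted p = 1.46e-07, 1.14e-06, 2.13e-06 and 4.79e-06). Acat1 went from 1487 ± 245 to 634 ± 48.3 scaled reads (SD, n = 4). The 4 that rose, named here after their values were seen, were Cpt1c, Acacb, Acsl4 and Slc25a20. Acacb makes malonyl-CoA, the inhibitor of carnitine palmitoyltransferase 1, and Slc25a20 is the carnitine-acylcarnitine carrier of the inner membrane. In CKD TRF against Control 17 fell and 2 rose, and against CKD 0 passed.

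Of 30 tested genes of the TCA cycle, succinate dehydrogenase and pyruvate handling, 12 fell and 1 rose in CKD (median -0.21). Sdhd, the membrane anchor of succinate dehydrogenase, changed by -1.93 ± 0.36 (limma adjusted p = 0.000189), but its Control libraries ranged widely, at 456, 98.7, 92.5 and 247 scaled reads, above CKD at 38.8 to 58.9. Sdhc, the other anchor, changed by -0.96 ± 0.13, Pdhx, the E3 binding protein of pyruvate dehydrogenase, by -0.88 ± 0.12, and Mpc2, a subunit of the mitochondrial pyruvate carrier, by -0.83 ± 0.10 (limma adjusted p = 6.02e-06, 8.84e-06 and 3.05e-06). The gene that rose was Pdp1, a phosphatase that activates pyruvate dehydrogenase (0.50 ± 0.19, limma adjusted p = 0.0335), named after its value was seen. In CKD TRF against Control 10 fell and 1 rose, and against CKD 0 passed.

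Of 21 regulators of mitochondrial and fatty acid genes 8 fell and 1 rose in CKD (median -0.24), and 12 did not pass. Among those 12 were Ppara (-0.08 ± 0.13) and Ppargc1a (-0.16 ± 0.11, limma adjusted p = 0.648 and 0.274), both named after their values were seen. Hnf4a, a nuclear receptor of proximal tubule and liver, went from 511 ± 38.8 to 239 ± 27.9 scaled reads (SD, n = 4; -1.09 ± 0.10, limma adjusted p = 2.86e-08). Tfam, the mitochondrial transcription factor A, changed by -0.68 ± 0.13, Nr1d1, the clock repressor REV-ERB alpha, by -0.68 ± 0.17, and Perm1, a regulator of oxidative genes at a low level here, by -1.07 ± 0.33 (limma adjusted p = 0.000384, 0.00351 and 0.0131). Nrf1, which encodes nuclear respiratory factor 1, rose by 0.61 ± 0.17 (limma adjusted p = 0.00655), and was named after its value was seen. In CKD TRF against Control 7 fell and 0 rose, and against CKD 0 passed.

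Cell type markers also changed in CKD against Control, and not all in the direction of the members. The 16 proximal tubule markers fell in 12 cases (75%) and rose in 0 (median -0.69). Of all tested genes 21.8% were lower, and of those in the top 10% by mean, members left out, 53.2%. The defining markers Lrp2 and Slc34a1 did not pass (-0.31 ± 0.20 and -0.29 ± 0.13, limma adjusted p = 0.226 and 0.0681). The summed level of the 16 markers lay at 15803 to 18986 scaled reads in the Controls, against 10665 to 12084 in CKD libraries and 12355 to 13989 with restricted feeding. As deposited, the beta-oxidation genes together came to 15134 ± 906 scaled reads in the Controls, 10349 ± 483 in CKD and 10549 ± 356 in CKD TRF libraries. The TCA genes came to 6120 ± 380, 4484 ± 208 and 4722 ± 157 (SD, n = 4). With all libraries scaled to equal sums, the beta-oxidation means were 13517.5, 10836.1 and 10435.5 in the same order. The TCA means were then 5472, 4693 and 4673. The gap to Control was narrower there, and the order of CKD and CKD TRF was reversed in both lists. All 9 macrophage markers and 6 of 7 fibroblast markers rose, with summed levels of 155 ± 14.7 and 242 ± 19.6 scaled reads in the Controls, 514 ± 57.5 and 1222 ± 65.4 in CKD, and 464 ± 30.4 and 1008 ± 66.5 in CKD TRF (SD, n = 4). Of 9 thick ascending limb and distal tubule markers 6 rose and 1 fell. All 6 tested urothelium markers rose, with summed levels between 3.68 and 14.7 scaled reads in Control libraries, between 28.9 and 141 in CKD libraries and between 32.8 and 121 with restricted feeding. Of 9 tested fat markers 7 rose, and the list came to 94.4 to 132 scaled reads in Control libraries, 70.5 to 463 in CKD libraries and 76.6 to 232 with restricted feeding. Most of the Control sum came from Pnpla2 and Car3, at mean log2 values of 6.28 and 5.17, against 0.168 for Adipoq. These were the markers that did not pass (0.03 ± 0.16 and -0.03 ± 0.54, limma adjusted p = 0.88 and 0.972). The fat marker Plin1 was at 0 in all 4 Controls and in CKD 3. Of the liver markers 1 of 5 fell, and of the tested muscle markers 1 of 2 fell, while the 1 tested adrenal marker did not pass. The part of these cell types in the changes of the members was not tested.

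**Figure D5:**
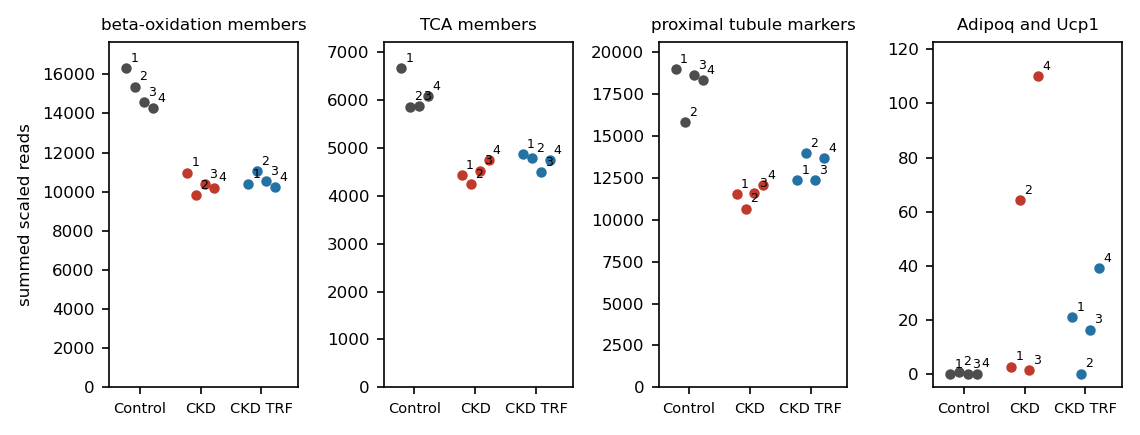
Summed scaled reads in each library (points, numbered by library within the group) of the 23 beta-oxidation genes, the 17 TCA genes, the 16 proximal tubule markers, and Adipoq with Ucp1. The first 3 sums lie higher in all 4 Control libraries than in all 8 diseased ones, and the fat genes are high in CKD 2, CKD 4, CKD TRF 1, CKD TRF 3 and CKD TRF 4.

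Start regions were described for the 37 members with a RefSeq window (GRCm38.p6, 250 bases before to 50 after the start). Some genes have several windows, so a gene was counted once, where any of its windows held the motif on either strand, and set beside the share among all 27025 genes of the table. The direct repeat of AGGTCA with 1 base between the copies, of the kind bound by PPAR/RXR and by HNF4, was found for no member and for 0.0481% of all genes. AAGGTCA was found for Acadm and Ogdh, and for 5.38% of all genes. The bare element AGGTCA, which every AAGGTCA contains, was found for 5 of 21 beta-oxidation genes (Acadm, Acadvl, Acsm1, Cpt1a and Echs1) and 4 of 16 TCA genes (Fh1, Idh3g, Ogdh and Sucla2), against 18.1% of all genes. The NRF1 palindrome was found for Etfdh and for 1.07% of all genes, and TGACGTCA, the cyclic AMP response element, for Mdh2 and Ogdh and for 2.03% of all genes. A match describes letters in a window and not a site in use.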

How the data were processed

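Kidney RNA of 12 libraries was measured by QuantSeq 3′ sequencing with a Lexogen kit, from 500 ng of Trizol-extracted total RNA per library, per the labels' protocols. The submitters' processing notes list Bowtie2, bedtools and the build mm10, with no version and no stated role. The authors deposited 1 log2 value per gene and library, and the values show it to be log2 of scaled reads plus 1. The scaling method and the strand setting are not given in the sources used here. Reads were recovered from the steps of values under 20 scaled reads: 98.3% to 100% of them lay within 0.1 of a whole read.

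For symbols with several entries the one with the highest mean was kept, and the upper 60% of genes by mean log2 value (13943, mean at least 0.729) were tested. All 3 groups entered 1 limma 3.58.1 model (R 4.3.3) with a mean per group, a prior spread that follows the mean, two-sided moderated tests and Benjamini-Hochberg adjustment. The planned form for log2 values was used. The script was tested on simulated data in which 100 genes changed by 0.5 on the log2 scale, 50 by 1 and 50 by 2. It recovered 24% to 28% of the changes of 0.5 and 86% to 96% of those of 1. A gene that did not pass can thus still have changed by such an amount. Far more genes were called against Control than were changed in the simulation, so these shares need not hold there. Group ratios were tested by exact permutation (scipy 1.17.1). The labels' replicate numbers do not pair the libraries. Alternatives covered scaling, filter, added constant, voom on recovered reads with trimmed-mean factors, groups fitted, replicate block, library weights, a fat marker covariate, and each library left out. A fit without the 5 libraries above 5 scaled reads of Adipoq was chosen after seeing the data.

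The members and lists were chosen with earlier results of these data known. All members could be named, from each other pathway list the 4 largest called changes in CKD against Control and the 2 largest in CKD TRF against CKD, and defining markers. Gene positions are from GENCODE vM21 (GRCm38, the assembly of mm10). Among the members, 5 have a similar copy at the 3′ end (at least 95% identity over 100 of the last 300 bases, blast 2.17.0): Slc22a5, Hadhb, Eci2, Etfb and Suclg2. The exons of 10 overlap a gene on the other strand: Acadvl, Hadha, Echs1, Eci2, Acsl1, Acsm3, Etfdh, Idh3b, Mdh1 and Pdha1. Those of 1, Etfb, overlap genes on the same strand, Gm45233 and Mir7051. Their values are uncertain to that extent.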

Additional observations from a re-analysis of the deposited data

Results flagged for a closer look

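Of 120 groups of 4 libraries checked for members, 4 held a library far from the other 3 by Dixon's gap test at the 95% level, and chance alone would be expected to flag about 1 in 20. Echs1 stood high in CKD TRF 2, at 7.839 on the log2 scale against 7.52 to 7.564 in the other libraries of its group. Idh3a stood high in CKD TRF 4, at 7.728 against 7.32 to 7.387. In the Control group, Eci1 was high in Control 1, at 7.392 against 7.041 to 7.083, and Idh2 in Control 3, at 8.907 against 8.788 to 8.807.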

How the results depend on the processing

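Over 2280 recomputed changes of single members, 2171 stayed on their side of the threshold, 62 lost and 43 gained a call, and 4 changed sign with a call in 1 of the fits. The 2171 include 115 that changed sign without a call in either fit. Quantile normalization gave 4 lower and 2 higher beta-oxidation genes and 7 lower and 3 higher TCA genes in CKD against Control. In CKD TRF against Control it gave 8 lower and 2 higher beta-oxidation genes and 6 lower and 2 higher TCA genes. It turned the sign of Acsm2 (0.078) and Etfb (0.032) and of Idh2 (0.23) in CKD, and of Idh2 (0.043) in CKD TRF, where Acsm2 lost its call at a change of 0. Equal sums gave 6 lower and 2 higher beta-oxidation genes and 7 lower and 2 higher TCA genes in CKD. In CKD TRF it gave 10 lower and 1 higher beta-oxidation genes and 6 lower and 1 higher TCA genes. The shares of called genes that were higher in CKD TRF against Control were 52.1% as deposited, 41.6% after median centring, 48.3% after quantile normalization and 71.9% with equal sums. Among all 13943 tested genes, 21.8% were lower in CKD as deposited, 28.1% after median centring, 22.6% after quantile normalization and 11.1% with equal sums. In CKD TRF against Control these shares were 17.9%, 23.1%, 17.9% and 10.3%. Called higher in the same order were 3297, 2650, 2813 and 4989 genes in CKD, and 2724, 2296, 2324 and 3656 in CKD TRF. Why scaling moves these counts was not tested. Leaving out 1 library gave 0 to 1 higher genes in each list in CKD against Control. Without the 5 libraries with fat markers, 11 beta-oxidation and 9 TCA genes were lower in CKD against Control, with 2 CKD libraries left. In that fit 13.9% of all tested genes were lower, against 21.8% with all libraries. CKD TRF kept 1 library there, so its calls are not counted. The replicate numbers share no pairing by the labels (correlations of deviations -0.18 to 0.11). With a replicate block, 13 beta-oxidation (Acads gained) and 10 TCA genes were lower in CKD, 12 and 9 (Idh2 lost) in CKD TRF against Control, and 0 in CKD TRF against CKD. With that block 21% of all tested genes were lower in CKD and 17% in CKD TRF against Control. In CKD TRF against CKD each of the listed fits called 0 members. Median centring gave 15 and 11 lower genes in CKD and 15 and 12 in CKD TRF against Control.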
